A study of Mus musculus with 12 samples.

Results

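The Ikaros family of zinc-finger transcription factors, encoded in the mouse by Ikzf1 (Ikaros), Ikzf2 (Helios), Ikzf3 (Aiolos), Ikzf4 (Eos) and Ikzf5 (Pegasus), was followed in RNA-seq gene counts of T-cell acute lymphoblastic leukemia (T-ALL). Its members are the 5 genes of 27179 in the count table whose Entrez identifiers carry these symbols, and all 5 passed the filter on low counts. The cells came from ALL101, a single primary leukemia of the genotype Vav-tTA;TRE-GFP-shIkaros, in which a tetracycline-off transactivator driven by the Vav promoter of blood cells switches on a short hairpin RNA against Ikaros that is linked to GFP. Leukemic recipient mice either received doxycycline (Dox) for 3 days, which turns the hairpin off and lets endogenous Ikaros return (3 mice), or were left untreated, with the hairpin on (3 mice). T-ALL cells were sorted from spleen by GFP, as GFPmid from every doxycycline mouse and as GFPhigh from every untreated mouse, and each RNA was sequenced in 2 runs. All 6 mice carried the same leukemia with the same transgenes, so the mice are replicates of 1 leukemia and not of several. The drug, the hairpin shut-off and the gate cannot be told apart in this design, since none of the libraries is of a hairpin-free leukemia given doxycycline. The labels give no strain or age of the mice, and of the 6 mice, untreated mouse 3 alone has INJ instead of a sort term in its library names.

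Ikaros family proteins bind DNA through zinc fingers in their N-terminal part and pair with themselves and with each other through a pair of fingers at the C-terminal end. Because members share partners and binding sites, and because short forms without the DNA-binding fingers can block the long ones, the balance between members bears on what the family does in a cell. Ikaros is needed for lymphocyte development and is a tumour suppressor in T-ALL. Helios is expressed in early and regulatory T cells, Aiolos in B cells and maturing lymphocytes, and Eos works with Foxp3 in regulatory T cells, while Pegasus is more distant in sequence and widely expressed.

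Stretches of a DNA-binding and a pairing finger are shown to let a reader judge how far reads of one member could be taken for another. In Ikzf2, Ikzf3 and Ikzf4 the DNA-binding finger shown was closer to Ikzf1 than the whole coding sequence was, whose identity to Ikzf1 was 68.6%, 65.9% and 68.0%, while for Ikzf5 (63.2%) that did not hold. The first set is the coding sequence of the second N-terminal finger of Ikzf1 and the most similar N-terminal finger of Ikzf2, Ikzf3 and Ikzf4, 63 bases each, on GRCm38 (mm10), with capitals at bases that differ from Ikzf1.
Ikzf1 (chr11:11754024-11754086, plus strand): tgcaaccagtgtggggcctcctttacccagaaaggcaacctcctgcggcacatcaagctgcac
Ikzf2 (chr1:69570581-69570643, minus strand): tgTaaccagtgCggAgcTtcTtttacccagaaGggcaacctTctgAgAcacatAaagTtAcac
Ikzf3 (chr11:98488940-98489002, minus strand): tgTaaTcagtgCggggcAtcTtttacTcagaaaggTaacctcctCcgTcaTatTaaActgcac
Ikzf4 (chr10:128640229-128640291, minus strand): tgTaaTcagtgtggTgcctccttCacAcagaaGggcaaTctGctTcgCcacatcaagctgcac
Ikzf2 and Ikzf3 each differed from Ikzf1 at 12 of the 63 bases (81.0% identity) and Ikzf4 at 10 (84.1%). Of the N-terminal fingers of Ikzf5 with this length, the most similar differed at 34 bases (46.0% identity) and is not shown. That finger of Ikzf5 was closer to the third finger of Ikzf1, with 60.3% identity.

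The second set is the first of the C-terminal pairing fingers, again 63 bases with capitals at bases that differ from Ikzf1, shown for Ikzf1, Ikzf2 and Ikzf5.
Ikzf1 (chr11:11769411-11769473, plus strand): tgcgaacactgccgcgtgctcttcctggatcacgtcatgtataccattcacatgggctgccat
Ikzf2 (chr1:69538870-69538932, minus strand): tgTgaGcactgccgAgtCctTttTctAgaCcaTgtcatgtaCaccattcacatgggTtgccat
Ikzf5 (chr7:131391739-131391801, minus strand): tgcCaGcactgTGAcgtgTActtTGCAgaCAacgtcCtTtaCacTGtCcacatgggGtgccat
Identity to Ikzf1 was 82.5% for Ikzf2 and 68.3% for Ikzf5. Even in the fingers shown, the longest run equal to Ikzf1 was 15 bases, in the N-terminal finger of Ikzf4. Over all annotated coding transcripts, no stretch of 36 bases was shared between any of the 5 members, and at 25 bases the shared stretches numbered 0 for Ikzf5 and 2 to 4 for the others. The counts are per gene, so long and short isoforms of a member are summed. In the 300-base promoter windows of RefSeq (GRCm38), which hold 2 for Ikzf1 and 1 for Ikzf5, the motif TGGGAA, a core of Ikaros binding, was found on neither strand, against 25.6% of all 32851 windows that hold it on at least one strand.

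Total counts per mouse ran from 29904744 to 44949303. Values are given as CPM (library-size-scaled counts, with TMM factors) within a gene, and as CPM per kilobase of gene where genes are set beside each other. Cd3e, a signalling chain of the T-cell receptor, was at 330.2 to 362 CPM in doxycycline mice and at 306 to 359 CPM in untreated mice. Of 12 T-cell markers 8 rose and 1 fell, where 24.8% of all 13134 tested genes were called higher and 25.2% lower at an edgeR adjusted p under 0.05. Their summed levels were 8954 to 10630 CPM in doxycycline mice against 6447 to 6622 CPM in untreated mice. Pax5, which defines B cells, was at 0 counts in every mouse, and Ms4a1 and Ebf1 lay at or below 0.059 CPM. The 8 B-cell markers summed to 252.1 to 297 CPM in doxycycline mice and to 208 to 356 CPM in untreated mice, nearly all of it Ighm. Markers of other lineages were low and partly moved with the groups. Erythroid markers summed to 85.0 to 107 CPM in doxycycline mice, against 6.50 to 59.3 CPM in untreated mice, with Alas2 higher. Myeloid markers summed to 57.4 to 79.0 CPM in doxycycline mice, against 21.9 to 40.5 CPM in untreated mice, with Itgam and Csf1r higher and S100a8, S100a9 and Mpo lower. NK-cell markers summed to 0.235 to 0.377 CPM in doxycycline mice and to 0.366 to 0.482 CPM in untreated mice. The part of these cells in the results below was not tested.

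Ikzf1, the hairpin's target, had 1438, 1523 and 1495 CPM in the 3 doxycycline mice, against 153, 149.7 and 159 CPM in the 3 untreated mice. The groups lay far apart and each was tight, with a coefficient of variation of 2.92% among doxycycline mice and 2.95% among untreated mice. The log2 fold change was 3.27 ± 0.07 (SE, 9.66-fold, edgeR adjusted p = 1.2e-07), the smallest p of the 13134 genes tested, while 54 genes had a larger log2 fold change. In bulk RNA such as this, fewer cells of a type and less RNA per cell cannot be told apart. Per kilobase, Ikzf1 lay above 98.8% to 98.9% of the tested genes in doxycycline mice and above 75.4% to 76.5% of them in untreated mice, so with the hairpin on it still exceeded most tested genes.

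Ikzf3, encoding Aiolos, had 469, 467 and 489 CPM in doxycycline mice, against 359.6, 355 and 392 CPM in untreated mice. The groups did not overlap, and Ikzf3 rose by a log2 fold change of 0.37 ± 0.07 (SE, 1.29-fold, edgeR adjusted p = 0.0023). Aiolos is abundant in B cells. Of the B-cell markers Pax5 was at 0 counts in every mouse, while Ighm had 251, 296 and 265 CPM in doxycycline mice, against 355, 353 and 207 CPM in untreated mice, and the part of such cells in the Ikzf3 result was not tested. Ikzf1 and Ikzf3 were the 2 of 5 members called higher and 0 were called lower (also 0 at an unadjusted p under 0.05, and 0 with DESeq2 or limma-voom), where, as above, 24.8% of all tested genes were called higher and 25.2% lower. A count of 2 among 5 genes is too small to be set apart from that background, and a rise of the size of Ikzf3's was common: 3361 genes had a larger log2 fold change.

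Ikzf2, encoding Helios, had 331, 129.7 and 285 CPM in doxycycline mice, against 144, 126 and 113 CPM in untreated mice. Doxycycline mice 1 and 3 stood above every untreated mouse, while doxycycline mouse 2 lay inside the untreated range, so the groups overlapped. The log2 fold change was 0.96 ± 0.36 (SE) and did not pass (edgeR adjusted p = 0.0797, unadjusted p = 0.0441). The coefficient of variation was 42.4% among doxycycline mice and 12.2% among untreated mice, and only 2.54% of tested genes had a larger spread of log2 CPM within the doxycycline mice. The spread exceeded counting error, as doxycycline mouse 2 had 5841 counts of Ikzf2, with an exact 95% Poisson interval of 5692 to 5993 that covers counting error only, against 11252 counts in doxycycline mouse 1. Its separate sequencing runs gave 129.5 and 130.4 CPM. Without doxycycline mouse 2 the log2 fold change was 1.28 ± 0.11 (SE, edgeR adjusted p = 0.00014), and without that mouse and untreated mouse 3 together, a choice made after seeing the data, it was 1.20 ± 0.10 (edgeR adjusted p = 1.3e-05). The call also depended on the tool, since DESeq2 passed Ikzf2 with all 6 mice (adjusted p = 0.0363), and so did edgeR without robust dispersions (adjusted p = 0.0287). The 5 listed markers of regulatory T cells, in which Helios is expressed, summed to 263 to 726 CPM in doxycycline mice and to 250.4 to 500.3 CPM in untreated mice. Of the 4 tested 1 rose and 3 did not pass, where 24.8% of all tested genes were called higher and 25.2% lower. Foxp3, which defines regulatory T cells, was at 0.265 CPM or less in every mouse. Lrrc32, which encodes a surface receptor for latent TGF-beta, rose, with 11.7, 13.9 and 8.72 CPM in doxycycline mice against 0.671, 0.994 and 2.56 CPM in untreated mice (edgeR adjusted p = 0.0026). Tnfrsf18 (0.26 ± 0.13 log2 units, edgeR adjusted p = 0.121) and Ctla4 (0.74 ± 0.64, edgeR adjusted p = 0.363) did not pass. Il2ra, the interleukin-2 receptor alpha chain of activated, regulatory and immature T cells, had 237, 699 and 244 CPM in doxycycline mice, against 237, 324 and 486 CPM in untreated mice, so it was high in the doxycycline mouse with low Ikzf2. The part of these markers in the Ikzf2 result was not tested.

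**Figure D1:**
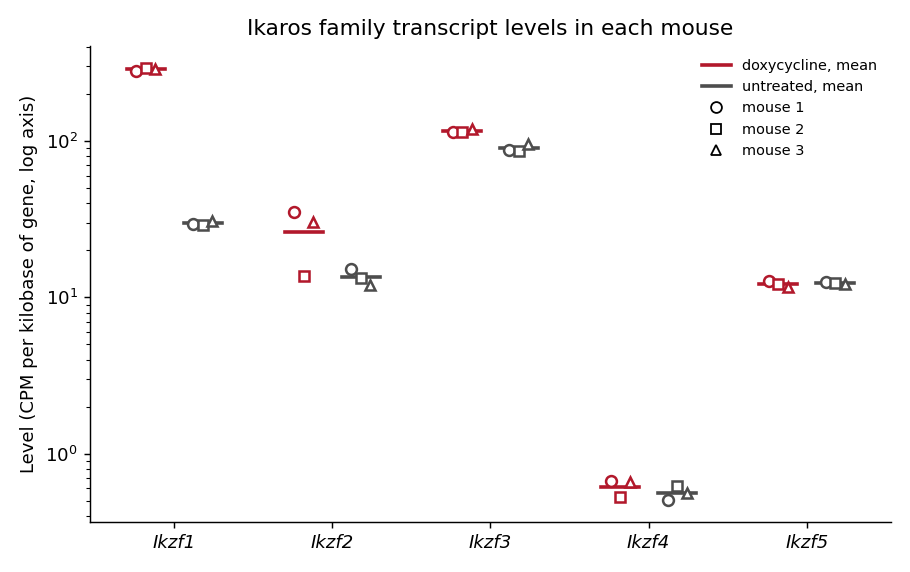
Transcript level of each Ikaros family member in each mouse, as CPM per kilobase of gene on a log axis, with doxycycline mice in red to the left of untreated mice in grey, a symbol per mouse number and a bar at the mean of 3 mice. Ikzf1 separates widely between the groups, Ikzf3 separates narrowly, and for Ikzf2 doxycycline mouse 2 (13.8 CPM per kilobase) sits among the untreated mice while doxycycline mice 1 and 3 (35.1 and 30.2) lie above them.

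**Figure D2:**
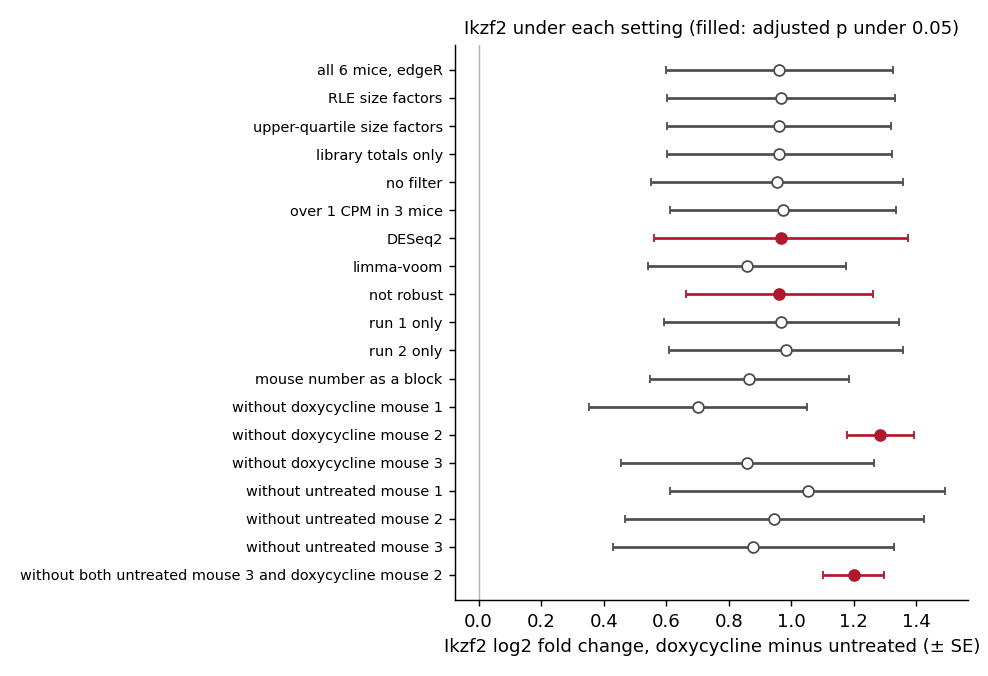
Log2 fold change of Ikzf2 (doxycycline minus untreated, with its SE) with all 6 mice and under each alternative, filled where the adjusted p was under 0.05. All values are positive and the filled ones are those of DESeq2, of edgeR without robust dispersions, and of both fits that leave out doxycycline mouse 2.

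Ikzf5, encoding Pegasus, had 55.9, 53.5 and 51.3 CPM in doxycycline mice, against 55.2, 54.3 and 53.3 CPM in untreated mice. The groups overlapped, with a log2 fold change of -0.02 ± 0.07 (SE, edgeR adjusted p = 0.819) and a 95% interval from -0.15 to 0.11. Of the 50-base stretches in Ikzf5 transcripts, 78.2% also occur in annotated transcripts of other genes, mainly Pstk, which overlaps Ikzf5. The strand setting of the counting is not given in the sources used here, so the Ikzf5 counts are uncertain, and Pstk itself had 14.1, 14.6 and 15.5 CPM in doxycycline mice against 19.0, 15.7 and 15.7 CPM in untreated mice (edgeR adjusted p = 0.184). The same check found 0 such stretches for Ikzf1 and Ikzf3, 0.566% for Ikzf4 and 0.992% for Ikzf2, the last from the annotated transcript Gm29114.

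Ikzf4, encoding Eos, was the member with the fewest reads, with 81, 85 and 102 counts in doxycycline mice and 54, 74 and 60 counts in untreated mice. These counts correspond to 2.38, 1.89 and 2.35 CPM in doxycycline mice against 1.81, 2.23 and 2.00 CPM in untreated mice. The groups overlapped, and the log2 fold change of 0.13 ± 0.21 (SE, edgeR adjusted p = 0.631) had a 95% interval from -0.28 to 0.54, wide enough to hold a rise as large as that of Ikzf3. A single mouse's count could not settle a difference of that size either, as the 95% Poisson interval of doxycycline mouse 1 ran from 64.3 to 100.7 counts and that of untreated mouse 1 from 40.6 to 70.5.

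The balance between members was read from levels per kilobase, which put genes of different length on 1 scale. In doxycycline mice Ikzf1 led with 288 ± 8.4 CPM per kilobase, followed by Ikzf3 with 116 ± 2.92, Ikzf2 with 26.4 ± 11.2, Ikzf5 with 12.2 ± 0.521 and Ikzf4 with 0.616 ± 0.077 (SD, n = 3). In untreated mice Ikzf3 led with 90.0 ± 4.85 CPM per kilobase, followed by Ikzf1 with 29.8 ± 0.879, Ikzf2 with 13.5 ± 1.66, Ikzf5 with 12.4 ± 0.221 and Ikzf4 with 0.562 ± 0.059 (SD, n = 3). Ikzf1 stood above Ikzf3 in all 3 doxycycline mice and below it in all 3 untreated mice. Ikzf2 and Ikzf5 did not differ beyond their spread in untreated mice, where Ikzf2 ran from 11.99 to 15.3 and Ikzf5 from 12.1 to 12.6 CPM per kilobase, and their order was turned in untreated mouse 3. The ranges of all other neighbours in the order did not overlap within either group. As the counts of Ikzf5 are uncertain, for the overlap with Pstk given above, so are its place in this order and its shares and ratios below.

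Summed over the 5 members, the family held 442 CPM per kilobase in doxycycline mouse 1, 435 in mouse 2 and 451 in mouse 3, against 146, 142 and 151 CPM per kilobase in the untreated mice. The groups did not overlap, and the total was 3.03-fold higher after doxycycline (exact two-sided permutation p = 0.1, the smallest that 3 against 3 mice can give). Ikzf1 made up 87.0% of the difference in mean levels, Ikzf3 8.73% and Ikzf2 4.33%. Without Ikzf1 the sum of the remaining members was 163, 140.4 and 162 CPM per kilobase in doxycycline mice, against 116, 113 and 120.2 CPM per kilobase in untreated mice. This sum too did not overlap between the groups and was 1.33-fold higher (exact permutation p = 0.1).

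As a share of the family total per kilobase, Ikzf1 took 63.1%, 67.8% and 64.2% in doxycycline mice, against 20.3%, 20.4% and 20.4% in untreated mice. The untreated mice spanned less than 0.1 percentage points, with a mean of 20.4% ± 0.0462 against 65.0% ± 2.45 in doxycycline mice (SD, n = 3 each, exact permutation p = 0.1). Ikzf3, the largest share in untreated mice, took 25.9%, 26.2% and 26.4% in doxycycline mice, against 60.2%, 61.0% and 63.3% in untreated mice (exact permutation p = 0.1). Its share was thus lower after doxycycline while its level was higher, since the sum itself was larger. The share of Ikzf5 averaged 2.76% ± 0.151 in doxycycline mice and 8.46% ± 0.369 in untreated mice, and that of Ikzf4 0.139% ± 0.0157 and 0.385% ± 0.0477, both without overlap (SD, n = 3 each). The levels of Ikzf5 and Ikzf4 did overlap between the groups, so their shares too were lower since the sum was larger. Ikzf2 took 5.94% ± 2.48 of the total in doxycycline mice and 9.27% ± 1.28 in untreated mice. Its groups overlapped by the width of one mouse, doxycycline mouse 1 at 7.95% against untreated mouse 3 at 7.94% (exact permutation p = 0.2). Dividing by the longest GENCODE transcript instead of the deposited gene length gave Ikzf1 63.0% ± 2.39 in doxycycline mice and 19.0% ± 0.0557 in untreated mice, and gave Ikzf4 0.0936% ± 0.0106 and 0.249% ± 0.0310 (SD, n = 3 each). Without any division by length, Ikzf2 took 10.9% ± 4.39 of the family counts in doxycycline mice and 18.1% ± 2.24 in untreated mice, and its groups did not overlap (exact permutation p = 0.1).

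Among the members other than Ikzf1, the makeup moved less. Ikzf3 took 70.2%, 81.1% and 73.7% of this remainder in doxycycline mice, against 75.6%, 76.7% and 79.5% in untreated mice, and the groups overlapped (exact permutation p = 0.5). Ikzf2 took 21.5%, 9.80% and 18.7% in doxycycline mice, against 13.2%, 11.8% and 9.97% in untreated mice, with doxycycline mouse 2 below all others (exact permutation p = 0.4). The share of Ikzf5 was lower in every doxycycline mouse, at 7.90% ± 0.734, against 10.6% ± 0.465 in untreated mice, and so was that of Ikzf4, at 0.396% ± 0.0180 against 0.484% ± 0.0602 (SD, n = 3 each, exact permutation p = 0.1 for each). Here again the levels of both members overlapped between the groups, while the sum of the remainder was higher in doxycycline mice. The Ikzf4 share rests on few counts. With run 2 only its difference was -0.031 percentage points (exact permutation p = 0.9), against -0.087 with both runs.

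**Figure D3:**
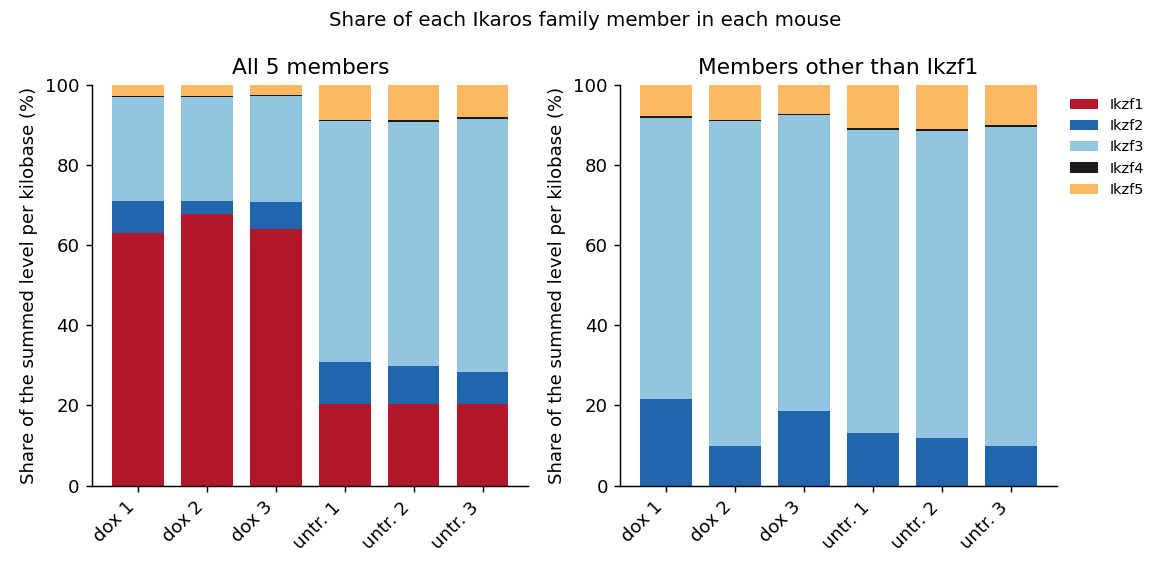
Share of each member in the summed level per kilobase, in percent, for all 5 members (left) and for the members other than Ikzf1 (right), with 1 bar per mouse and doxycycline mice left of untreated mice. The Ikzf1 share is 63.1% to 67.8% in doxycycline mice and 20.3% to 20.4% in untreated mice, while in the remainder Ikzf3 stays the largest share in every mouse.

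Ratios of members within a mouse do not depend on how libraries were scaled, and all 10 pairs were compared. Ikzf1 to Ikzf3, per kilobase, was 2.43, 2.59 and 2.43 in doxycycline mice, against 0.338, 0.335 and 0.322 in untreated mice. No mouse came near the other group, and the mean log2 ratio differed by 2.91 (exact permutation p = 0.1, adjusted p = 0.2 over the 10 pairs). The ratio of Ikzf1 to Ikzf2 was 7.93, 21.4 and 9.58 in doxycycline mice, against 1.94, 2.17 and 2.56 in untreated mice, so its spread among doxycycline mice came with the low Ikzf2 of mouse 2. Ikzf1 to Ikzf5 was 21.9, 24.2 and 24.8 in doxycycline mice, against 2.35, 2.34 and 2.53 in untreated mice. Of the ratios without Ikzf1, only that of Ikzf3 to Ikzf5 separated the groups, at 9.0, 9.35 and 10.2 in doxycycline mice against 6.97, 7.0 and 7.87 in untreated mice (exact permutation p = 0.1, adjusted p = 0.2). The Ikzf5 counts in this ratio are uncertain, as said above. Ikzf2 to Ikzf3 overlapped, at 0.307, 0.121 and 0.254 in doxycycline mice against 0.174, 0.154 and 0.126 in untreated mice (exact permutation p = 0.4). In all, 5 of the 10 ratios did not overlap between the groups, and each of the 5 holds Ikzf1 or the pair of Ikzf3 and Ikzf5. Among single genes, 61.2% of the 13134 tested did not overlap (30.2% higher and 30.9% lower in doxycycline mice).

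**Figure D4:**
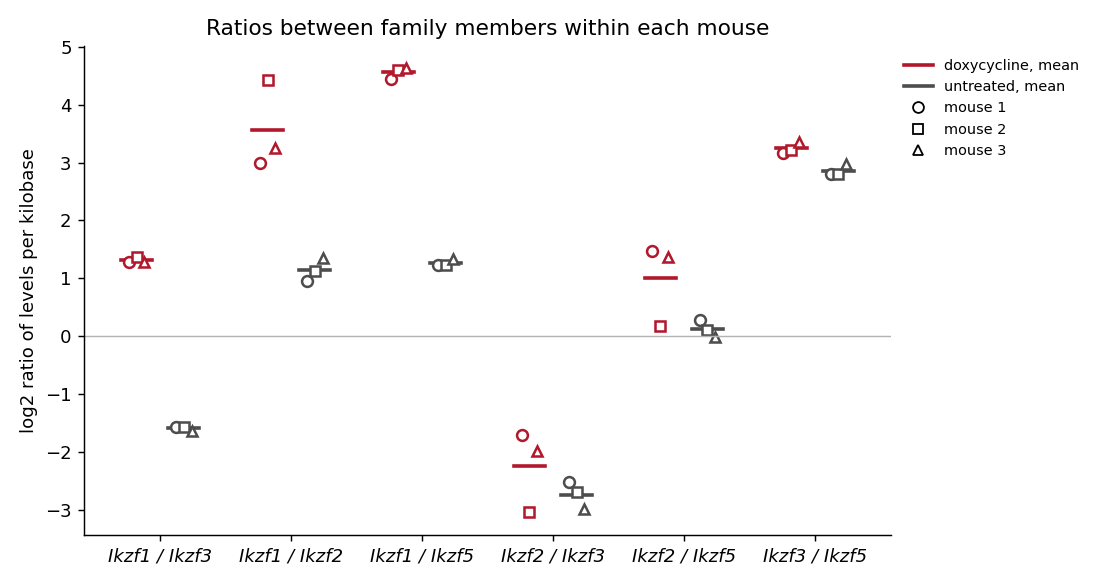
Log2 ratio of levels per kilobase between pairs of members within each mouse, with doxycycline mice in red to the left of untreated mice in grey and a bar at the mean of 3 mice. The ratio of Ikzf1 to Ikzf3 lies above 0 in doxycycline mice (mean 1.31) and below 0 in untreated mice (mean -1.59), and the ratios of Ikzf2 to Ikzf3 and to Ikzf5 overlap between the groups.

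Ikaros works with chromatin complexes, above all the NuRD complex of nucleosome remodelling and histone deacetylation, and also with SWI/SNF, Sin3 and CtBP. Of 24 listed genes, those of these complexes and also Rb1, 23 were tested. Of these, 8 rose, 5 fell and 10 did not pass, against 24.8% higher and 25.2% lower over all genes. The median log2 fold change was -0.01, against -0.0037 over all genes tested. The 4 with the smallest p were all higher. Chd3, a remodelling ATPase of NuRD, had 426, 362 and 424 CPM in doxycycline mice, against 196, 217 and 241 CPM in untreated mice (log2 fold change 0.89 ± 0.10, SE, edgeR adjusted p = 0.00027). Rb1, the retinoblastoma protein that restrains cell-cycle entry, had 222, 159.7 and 184 CPM in doxycycline mice, against 95.9, 96.7 and 104 CPM in untreated mice (0.93 ± 0.12, edgeR adjusted p = 0.00052). The NuRD linker genes Gatad2b (0.57 ± 0.08) and Mbd2 (0.44 ± 0.07) rose as well. Within NuRD the direction was mixed, as Mbd3, Hdac2, Rbbp7 and Mta1 fell by 0.31, 0.23, 0.27 and 0.23 log2 units, and Chd4 with 0.18 ± 0.07 did not pass (edgeR adjusted p = 0.0627).

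Ikaros activity is also set by phosphorylation through casein kinase 2 and Syk, by sumoylation, and in human cells by drug-induced ubiquitination of Ikaros and Aiolos through cereblon. Of 19 listed genes of these modifiers all were tested, and 0 rose, 4 fell and 15 did not pass (median log2 fold change -0.10). Over all genes tested edgeR called 24.8% higher and 25.2% lower. At an unadjusted p under 0.05 edgeR had 1 listed gene higher, Pias1 (log2 fold change 0.17 ± 0.07), which DESeq2 passed after adjustment and limma-voom did not. The 4 that fell were Ddb1, Cul4a and Cul4b of the cullin-4 ubiquitin ligase and the kinase Syk. Ddb1 had 696, 716 and 781 CPM in doxycycline mice, against 1065, 1054 and 1037 CPM in untreated mice (-0.53 ± 0.07, edgeR adjusted p = 0.00052). Syk had 2.91, 3.15 and 2.23 CPM in doxycycline mice, against 31.8, 25.5 and 10.4 CPM in untreated mice (-3.03 ± 0.44, edgeR adjusted p = 0.0025). Crbn, which encodes cereblon, had 0.18 ± 0.09 on the same log2 scale, short of the threshold (edgeR adjusted p = 0.118).

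Of 25 genes reported as targets of Ikaros family factors, a list that was drawn up with results of these data known, 22 were tested, and 6 rose, 8 fell and 8 did not pass, against 24.8% higher and 25.2% lower over all genes. Their median log2 fold change was -0.42. Hes1, a Notch target that Ikaros represses in T cells, had 13.7, 20.5 and 17.3 CPM in doxycycline mice, against 63.5, 60.8 and 56.1 CPM in untreated mice (-1.81 ± 0.14, edgeR adjusted p = 8.7e-05). Cd8a, a co-receptor gene of maturing thymocytes, had 1846, 2197 and 1385 CPM in doxycycline mice, against 419, 412 and 506 CPM in untreated mice (2.02 ± 0.18, edgeR adjusted p = 0.00024). Dntt, which encodes terminal transferase of immature lymphocytes, and Myc, the growth regulator, fell on the log2 scale by 1.59 ± 0.16 and 1.33 ± 0.15, with edgeR adjusted p of 0.00030 and 0.00044. In 13 of the 22 tested targets doxycycline mouse 2 was the highest of the doxycycline mice, as it was in 36.5% of all tested genes. Among them was Notch1, which fell, with 575, 1298 and 695 CPM in doxycycline mice against 1606, 1815 and 2143 CPM in untreated mice. For Notch1, doxycycline mouse 2, the one with low Ikzf2, thus lay nearest the untreated mice. The same held for Hes1, Dntt and Ptcra, which fell, and for Rag1 and Nrarp, which were lower but did not pass. For Rag2, Dtx1, Il2ra and Notch3, also highest in that mouse, the groups overlapped. For Cd8a, Cd8b1 and Cd4, which rose and were also highest in that mouse, it lay farthest from the untreated mice. This comparison of mice was chosen after the values were seen.

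Other lymphoid zinc-finger factors gave a frame for the size of the Ikaros family changes. Of 20 listed genes 19 were tested, and 10 rose, 1 fell and 8 did not pass, against 24.8% higher and 25.2% lower over all genes, with a median log2 fold change of 0.54. Egr1, an early response gene of antigen-receptor signalling, had 228, 217 and 218 CPM in doxycycline mice, against 27.0, 30.5 and 47.1 CPM in untreated mice (2.67 ± 0.21, edgeR adjusted p = 0.00023). Gfi1, a repressor needed for T-cell and neutrophil development, Prdm1, which encodes Blimp-1, and Klf2, a factor of quiescent and migrating T cells, rose by 0.58 ± 0.08, 2.91 ± 0.43 and 2.00 ± 0.28 log2 units. Prdm1 was at 1.84 to 3.51 CPM in doxycycline mice and at 0.566 CPM or less in untreated mice. None of the tested factors on this list had a log2 fold change as large as the 3.27 of Ikzf1, which is the hairpin's target by design. The other members had 0.96 (Ikzf2), 0.37 (Ikzf3), 0.13 (Ikzf4) and -0.02 (Ikzf5), against the list median of 0.54.

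**Figure D5:**
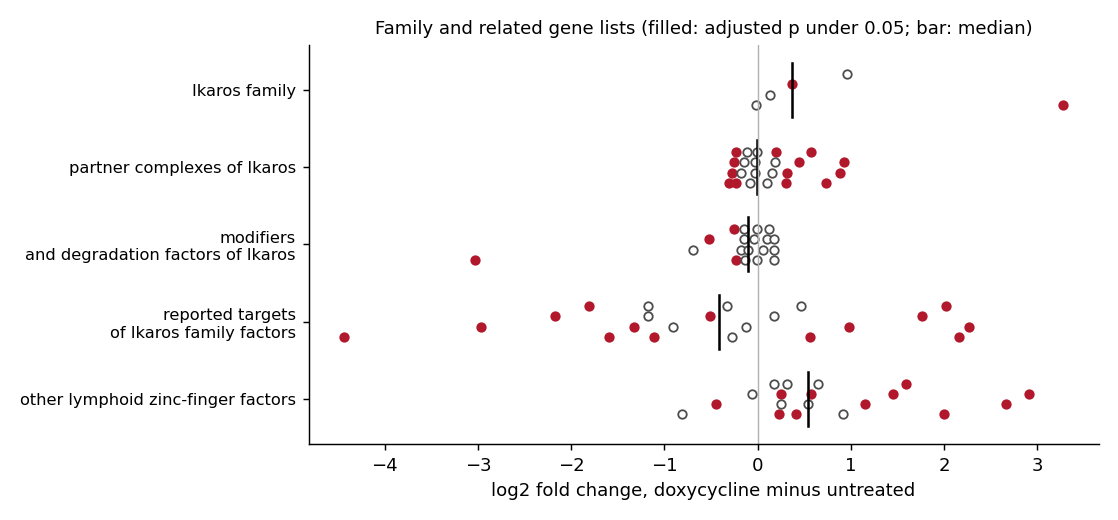
Log2 fold change (doxycycline minus untreated) of the Ikaros family and of the listed partner, modifier, target and other zinc-finger genes that were tested, 1 point per gene, filled where the edgeR adjusted p was under 0.05, with a bar at the median of each list. Ikzf1, the hairpin's target, lies at 3.27, beyond every gene of the other lists on the positive side. No modifier is filled on that side.

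The genes around the family loci were read next, as 3 protein-coding neighbours on each side. Of 30 neighbours 20 were tested, and 5 rose, 4 fell and 11 did not pass (median log2 fold change 0.07), close to the 24.8% higher and 25.2% lower of all genes, so the calls below do not set the neighbours apart. Near Ikzf1 (chr11:11684962-11772930), Spata48 rose at a low level of 1.38 ± 0.133 CPM in doxycycline mice and 0.701 ± 0.0868 CPM in untreated mice, and Ddc fell to 21.6 ± 2.82 CPM in doxycycline mice, against 29.3 ± 5.65 CPM in untreated mice (SD, n = 3 each, edgeR adjusted p = 0.011 and 0.044). Near Ikzf3 (chr11:98464610-98546031) Grb7 rose (0.66 ± 0.21, edgeR adjusted p = 0.026), at 3.98 ± 0.663 CPM in doxycycline mice and 2.50 ± 0.329 CPM in untreated mice. Around Ikzf4 (chr10:128630839-128669671), itself without a call, 3 of 6 neighbours rose and 3 fell, against those same shares of 24.8% and 25.2% over all genes. Suox, which lies 216 bases away and encodes sulfite oxidase, had 30.1, 23.3 and 25.0 CPM in doxycycline mice, against 14.9, 14.6 and 14.6 CPM in untreated mice (0.83 ± 0.11, edgeR adjusted p = 0.00063). Rab5b and Pmel rose, and Pa2g4, Erbb3 and Rps26 fell, by 0.85 ± 0.10, 2.29 ± 0.35 and 0.43 ± 0.08 log2 units. Of 2 tested neighbours of Ikzf2 (chr1:69531207-69687351) and 3 of Ikzf5 (chr7:131388649-131410518), 0 passed with edgeR. Acadsb beside Ikzf5 had an edgeR unadjusted p of 0.031 (-0.45 ± 0.17, adjusted p = 0.060), and limma-voom passed it while DESeq2 did not.

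The genes whose pattern over the 6 mice came closest to each member were ranked by the root-mean-square difference of mean-centred log2 CPM, among about 9436 genes with an official symbol and a mean of at least 5 CPM. For Ikzf1 no gene came within 0.1, and the nearest were Phf11b (0.205), Rab19 (0.263) and Ampd1 (0.292). For Ikzf2 no gene came within 0.1 either, and the nearest were Dhrs11 (0.200), the RNA-helicase gene Dhx58 (0.201) and Art2b (0.207). In each of them doxycycline mouse 2 was the lowest of the doxycycline mice, which a ranking by likeness to Ikzf2 favours. Dhx58 had 11.2, 6.26 and 10.4 CPM in doxycycline mice, against 4.63, 4.07 and 4.32 CPM in untreated mice. Its doxycycline mouse 2 thus lay above every untreated mouse, unlike that of Ikzf2. For Ikzf3, 600 genes came within 0.1, led by Tln1, which encodes the adhesion protein talin (0.0186), Epb41l2 (0.0191) and the pseudogene Spcs2-ps (0.0239). For Ikzf4, 90 did, led by Rnf144a, Ddah2 and Tex14, and for Ikzf5, 1603 did, led by Mplkip, Pum2 and Ap1g1. Ikzf1 and Ikzf2 thus had the fewest genes within 0.1. The log2 values were centred but not scaled, so this number also depends on how far a gene varied between mice. Ikzf1 had a larger absolute log2 fold change than 98.9% of tested genes. Only 2.54% had a larger spread than Ikzf2 among doxycycline mice. The numbers therefore cannot tell how widely the shape of a pattern was shared.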

How the data were processed

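RNA-seq was made from sorted T-ALL cells of 3 doxycycline and 3 untreated mice, with 2 sequencing runs of each RNA. The authors deposited raw counts per Entrez gene with a gene length, per the file headers. The tools named in the submitters' processing notes are CASAVA 1.8.1 and featureCounts, with the build mm10. An aligner, an annotation, a strand setting and a rule for reads with several matches are not given in sources used here. Per-library and whole-series tables held equal counts in 12 of 12 libraries. Runs were summed per mouse, so n counts mice. Whether the mice were handled separately beyond their labels is not given, and p-values measure the spread between these samples. Symbols came from RefSeq (GRCm38) for 25275 of 27179 identifiers.

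Groups were compared with edgeR 4.0.16 in R 4.3.3 (filterByExpr, TMM, robust quasi-likelihood F test, no block, Benjamini-Hochberg over all 13134 genes tested, threshold 0.05). SE was taken as the size of the log2 fold change over the square root of F. Shares, sums and ratios used counts per deposited gene length and exact two-sided permutation tests over mice, which cannot go below 0.1 for 3 against 3. Alternatives used DESeq2 1.42.0, limma-voom (limma 3.58.1), other scalings and filters, single runs, a replicate block and leaving out mice. The replicate numbers did not pair the mice by the check given in the closing section.

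The members, lists and tests were chosen with earlier results of these data known. Named genes were the members, up to 4 genes with the smallest p per list, called neighbours, and the 3 genes most like each member. Notch1, Il2ra, Foxp3, Crbn, Pias1, Pstk, Acadsb and the other genes named outside that rule were chosen after their values were seen. Coding sequences and fingers, found by the pattern of paired cysteines and histidines, came from GENCODE M21 (GRCm38), and identity was computed on nucleotides, as proteins were not analysed here. Some listed markers and finger sequences are not reported here. RefSeq promoter windows run from 250 bases before to 50 after a gene start.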

Additional observations from a re-analysis of the deposited data

How the results depend on the processing

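Of 90 refits of the 5 log2 fold changes, 83 kept their direction and their side of the threshold, 4 passed it and 3 reversed. Of 234 alternatives for shares, ratios and sums, 232 kept their direction and 2 reversed, and none of these exact tests could reach 0.05, so their p-values say nothing of stability. Both counts of called genes stayed within 1.5 times their value under 18 alternatives each. The log2 fold changes of Ikzf1 and Ikzf3 passed under all 18 alternatives tried for each. Ikzf2 passed under DESeq2 (0.97, adjusted p = 0.0363), with edgeR that was not robust (0.96, adjusted p = 0.0287), without doxycycline mouse 2 (1.28, edgeR adjusted p = 0.00014) and, added after seeing the data, without both untreated mouse 3 and doxycycline mouse 2 (1.20, edgeR adjusted p = 1.3e-05). Leaving out 1 mouse at a time gave Ikzf2 values from 0.70 to 1.28. The reversals were of values near 0 that passed no test: Ikzf4 at -0.065 and a difference in the log2 ratio of Ikzf4 to Ikzf5 of -0.048 with run 1 only, and Ikzf5 at 0.012 with run 2 only. Leaving out 1 mouse gave Ikzf5 values from -0.050 to 0.017 (0.017 without doxycycline mouse 3). It gave differences in the Ikzf3 share among the members other than Ikzf1 from -5.27 percentage points, without doxycycline mouse 2, to 0.171 points, without doxycycline mouse 1. The cause was not tested.

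Same-numbered mice did not deviate together (correlations of 0.156, -0.0116 and -0.103 for numbers 1, 2 and 3), so the numbers were not taken as pairs. With the replicate number as a block, edgeR called 3103 genes higher and 3156 lower, against 3255 and 3316 without it, and Ikzf2 had 0.87 (edgeR adjusted p = 0.104). Ikzf4 was limited by depth, with run-to-run ratios of its CPM from 0.660 to 1.45, against 0.963 to 1.06 for the other members.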

Other observations

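Ikzf2, which did not pass the test over all mice, was at least 1.98-fold above the highest untreated mouse in doxycycline mice 1 and 3. With that ratio, which is Ikzf2's own, as the limit, 580 genes lay as far above the untreated mice, Ikzf2 included. Of these, doxycycline mouse 2 lay within the untreated range for 2, Ikzf2 and the predicted gene Gm8995. Gm8995 had 38.8, 12.7 and 38.3 CPM in doxycycline mice, against 16.2, 10.1 and 5.06 CPM in untreated mice. Doxycycline mouse 2 was the lowest of the doxycycline mice for 238 (41.0%) of the 580 genes and the highest for 209, against 36.6% lowest and 36.5% highest over all 13134 tested genes. Of 471 genes as far below the untreated mice in doxycycline mice 1 and 3, it lay within the untreated range for 9. Over all 13134 tested genes, with no limit on doxycycline mice 1 and 3, it lay within that range for 2156 (16.4%). Ikzf1 itself was highest in that mouse, at 1523 CPM. These counts were drawn up after the value of Ikzf2 in that mouse had been seen and carry no test.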
